A study of Mus musculus with 15 samples.

Results

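The matrix metalloproteinases Mmp2, Mmp9, Mmp14 and Mmp15, their tissue inhibitors Timp1, Timp2, Timp3 and Timp4, and the related proteases Adamts1 and Adamts5 were followed by RNA sequencing in mouse plantaris, a fast muscle of the calf. They were chosen by gene symbol and are 10 of the 20406 genes in the deposited count table, which held all of them. Of the 10, 9 had enough counts to be tested and Timp1 did not. The 15 libraries fell by their titles into 5 groups of 3. Trained muscle came from mice of 6 months after 8 weeks of progressive weighted wheel running, PoWeR, in which the load on the wheel is raised over time (6M_PoW). A further set of trained replicates, numbered 4 to 6, carried LD identifiers (6M_POW_LD), and the labels do not explain LD. Untrained muscle of the same age was the control (6M_UT). Detrained muscle came from mice of 9 months that had run for 8 weeks and then had 12 weeks without the training (9M_PoW+DT), with untrained muscle of 9 months as its control (9M_UT). All mice, controls included, were adult males of the HSA-GFP line, in which the human skeletal actin promoter drives a tetracycline-controlled activator and through it a histone 2B-GFP fusion that marks the nuclei of muscle fibres.

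The treatment field of the labels named the other condition for all 6 libraries of 9 months and called the 3 LD libraries sedentary. Groups follow the titles throughout. If the treatment field were right for the 9-month libraries, every difference between 9M_PoW+DT and 9M_UT would keep its size and turn its sign. If it were right for the LD libraries, 6M_POW_LD against 6M_UT would set untrained muscle against untrained muscle. The 6-month, 9-month and LD libraries also carried different identifiers, so age and library series cannot be told apart, nor can the LD label and library series in any comparison of 6M_POW_LD. The labels do not state that each replicate was its own mouse, so p-values measure no more than the spread between these samples. Total counts were 18865048 to 27688842 per library. Muscle fibre transcripts were abundant, with the skeletal actin gene Acta1 at 18907 to 24987 counts per 1000000 (CPM).

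Matrix metalloproteinases are zinc-dependent enzymes that are made as inactive proenzymes and cut collagens, laminins and other proteins around cells. Mmp2 is a secreted gelatinase that cuts basement membrane and denatured collagen, Mmp14 and Mmp15 are held in the cell membrane, and Mmp14 at the surface can bind Timp2 and through it capture and activate pro-Mmp2. The tissue inhibitors of metalloproteinases, or TIMPs, block the active site of these enzymes, and ADAMTS proteases are secreted relatives that cut proteoglycans such as versican. In muscle much of this RNA is made by connective tissue and vessel cells between the fibres, and the activity of an enzyme also depends on its activation and inhibition as protein, which RNA levels do not measure.

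Among the members Timp2 had the highest level per length of exon, with a mean of 24.0 CPM per kb over the 15 libraries. Timp3 followed with 12.0 CPM per kb, below Timp2 in every library, and Mmp2 with 7.74 CPM per kb, in a range that overlapped that of Timp3. Adamts1, Timp4 and Mmp15 lay close together at 5.62, 4.47 and 4.31 CPM per kb, and their ranges over libraries overlapped. Mmp14 and Adamts5 were lower, with 1.59 and 1.36 CPM per kb, and also overlapped. The gelatinase Mmp9, best known from neutrophils and macrophages, was near the limit of detection at 0.173 CPM per kb, and Timp1, an inhibitor known to be inducible by inflammation and injury, had 0.101 CPM per kb. These low levels leave Mmp9 and Timp1 out of most of what follows. Within genes, the highest library exceeded the lowest by 3.15 times for Timp4, 2.69 times for Mmp14, 2.5 times for Mmp15 and 2.26 times for Mmp2, and by 1.64 times for Timp2 and 1.56 times for Adamts5.

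**Figure D1:**
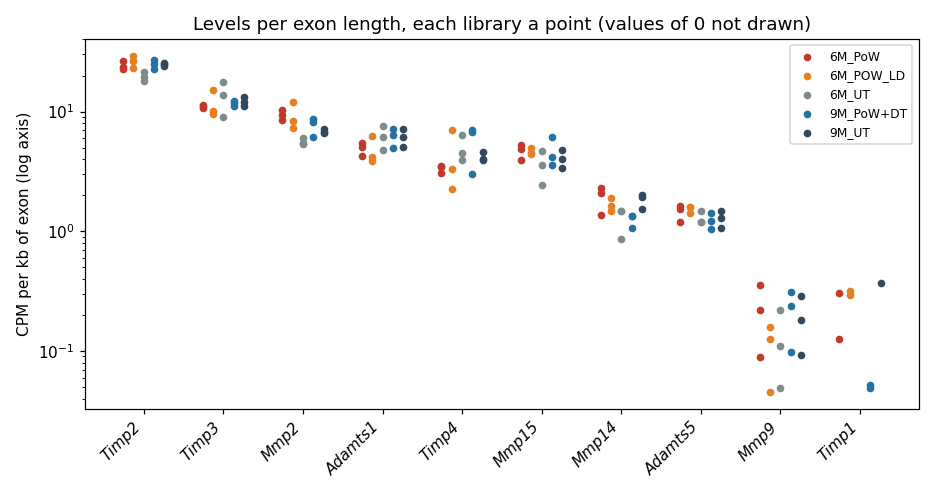
CPM per kb of exon (log axis) of the 10 genes, ordered by their mean, with each library as a point coloured by group and values of 0 not drawn. Timp2 lies at the top with a mean of 24.0 CPM per kb and Mmp9 and Timp1 at the bottom with 0.173 and 0.101.

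The promoters of the membrane protease Mmp14 and of the inhibitors Timp2 and Timp4 are shown because these genes, with Mmp2, carry the differences described below. RefSeq's promoter table for GRCm38.p6, with windows of 300 bases around a gene's start, held 7 of the 10 members. Distances below are to the start that sets the window. For Timp2 this is not the outer end of the gene as counted, 118355740, which lies outside the window. For Mmp14 it is not the start of the gene as counted either, 54431612, which lies inside the window. The 5′ to 3′ sequences are given on the strand of the gene, and capitals mark the GC box GGGCGG and the CCAAT box on either strand. The Mmp14 promoter lies at chr14:54431348-54431647 on the plus strand, the Timp2 promoter at chr11:118355362-118355661 on the minus strand and the Timp4 promoter at chr6:115252156-115252455 on the minus strand.
Mmp14: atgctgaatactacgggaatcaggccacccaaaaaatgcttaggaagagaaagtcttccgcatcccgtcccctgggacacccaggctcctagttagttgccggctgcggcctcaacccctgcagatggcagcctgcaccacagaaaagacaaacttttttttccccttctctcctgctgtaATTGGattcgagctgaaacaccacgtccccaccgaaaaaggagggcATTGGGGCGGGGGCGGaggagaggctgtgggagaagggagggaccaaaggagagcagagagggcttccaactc
Timp2: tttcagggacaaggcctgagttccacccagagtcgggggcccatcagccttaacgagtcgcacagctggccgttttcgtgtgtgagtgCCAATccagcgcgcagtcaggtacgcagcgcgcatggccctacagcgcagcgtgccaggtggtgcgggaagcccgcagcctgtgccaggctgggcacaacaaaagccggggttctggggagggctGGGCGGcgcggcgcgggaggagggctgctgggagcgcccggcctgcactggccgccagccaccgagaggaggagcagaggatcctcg
Timp4: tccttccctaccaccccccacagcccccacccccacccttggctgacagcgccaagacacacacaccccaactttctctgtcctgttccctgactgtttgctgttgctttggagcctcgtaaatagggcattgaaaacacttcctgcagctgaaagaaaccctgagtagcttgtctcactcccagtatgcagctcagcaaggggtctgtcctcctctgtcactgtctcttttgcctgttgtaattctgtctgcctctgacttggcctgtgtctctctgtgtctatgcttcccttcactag
Mmp14 had 2 GC boxes, 19 and 13 bases before its start, and 2 reverse-strand CCAAT boxes 69 and 23 bases before it, the nearer of which shares 1 base with a GC box. Timp2 had a CCAAT box 162 bases and a GC box 37 bases before its start, in a window of 68.7% G and C. Timp4 held neither, nor the TATA box TATAAA or the AP-1 motif TGANTCA, in a window of 53.3% G and C. Over 32851 mouse promoters of the same length, searched on both strands, 35.7% held a GC box, 37.4% a CCAAT box, 13.6% the TATA letters and 7.81% the AP-1 letters. None of the 7 member promoters held the AP-1 letters. These matches describe the letters only.

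The first comparison set trained against untrained muscle at 6 months, to see which matrix enzymes and inhibitors moved with loading. Mmp2 RNA had the smallest p of the members. It was at 34.7, 31.3 and 28.6 CPM in 6M_PoW, against 18.1, 18.3 and 20.3 CPM in 6M_UT. Every trained library lay above every untrained one. The log2 fold change was 0.74 ± 0.12 (SE, n = 3 against 3), a 1.67-fold higher level, and it ranked 4 of 14919 genes by p. Its adjusted p of 0.0701, from edgeR's quasi-likelihood test with Benjamini-Hochberg adjustment over all genes, missed the threshold of 0.05, which 0 genes (0%) passed in this comparison. Mmp2, on chromosome 8 at 92827291 to 92853420 of mm10, plus strand, did pass with DESeq2's Wald test, at an adjusted p of 3.172e-04, without 9M_PoW+DT replicate 3, which shares the estimate of spread, at 0.0191, and with no filter on low counts, at 0.0190. With each of the other 11 libraries left out in turn the log2 fold change was 0.67 to 0.81 and the adjusted p 0.0503 to 0.326, the highest without 6M_PoW replicate 2.

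Timp2, the abundant inhibitor that also serves in the activation of pro-Mmp2, was at 87.7, 104 and 92.5 CPM in 6M_PoW, against 75.3, 83.3 and 69.5 CPM in 6M_UT. Its trained libraries were also all above the untrained ones, by a smaller margin, with a log2 fold change of 0.32 ± 0.09 and an adjusted p of 0.253 in the edgeR test. Timp2 lies on chromosome 11 at 118301069 to 118355740 on the minus strand. It overlaps the gene Cep295nl on the same strand, which had 0 to 6 counts per library. Mmp14 was at 8.15, 13.8 and 12.4 CPM in 6M_PoW, against 8.86, 5.13 and 8.86 CPM in 6M_UT. The groups overlapped through 6M_PoW replicate 1, and the log2 fold change was 0.60 ± 0.23 with an adjusted p of 0.405 in edgeR. Mmp14 lies on chromosome 14 at 54431612 to 54445364 on the plus strand. The ratio of Mmp2 to Timp2 CPM within a library, which is not corrected for length and was not tested, was 0.301 to 0.396 in 6M_PoW and 0.238 to 0.358 in 6M_POW_LD, against 0.219 to 0.292 in 6M_UT. It was 0.234 to 0.281 in 9M_PoW+DT, against 0.228 to 0.260 in 9M_UT, so of these groups only 6M_PoW stood clear of its untrained control.

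Timp4, an inhibitor known from heart, muscle and fat, lay on the other side. It had 20.8, 20.4 and 18.2 CPM in 6M_PoW, against 37.9, 26.8 and 23.4 CPM in 6M_UT. All trained libraries were below all untrained ones, but the untrained libraries were spread and the log2 fold change of -0.57 ± 0.29 had an adjusted p of 0.579 in edgeR. Without 6M_UT replicate 1 it was -0.35. Timp3, which stays bound to the matrix and also inhibits ADAM proteases, had 93.3, 87.6 and 89.8 CPM in 6M_PoW, against 144, 112 and 73.9 CPM in 6M_UT. The untrained libraries spanned the trained ones, with a log2 fold change of -0.29 ± 0.18. Timp4 lies on chromosome 6 at 115241892 to 115252205 on the minus strand and Timp3 on chromosome 10 at 86300372 to 86349506 on the plus strand. They overlap the synapsin genes Syn2 and Syn3 on the opposite strand, and these had 17 to 68 and 0 to 17 counts per library. The labels do not state whether counting used the strand, so reads of such pairs cannot be told apart.

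Among the remaining members no training difference passed. Mmp15, a membrane-type protease on chromosome 8 at 95352268 to 95375080, plus strand, was at 26.4, 28.3 and 21.1 CPM in 6M_PoW, against 13.2, 19.4 and 25.4 CPM in 6M_UT, and the groups overlapped. Adamts1, which cuts versican and aggrecan and lies on chromosome 16 at 85793827 to 85803113 on the minus strand, was at 28.9, 27.0 and 22.4 CPM in 6M_PoW, against 32.3, 39.8 and 25.4 CPM in 6M_UT, with a log2 fold change of -0.32 ± 0.18. Adamts5, its neighbour on the same strand at 85856173 to 85901828 and the chief aggrecan-cutting enzyme of mouse cartilage, was at 16.6, 17.6 and 12.9 CPM in 6M_PoW, against 15.9, 12.99 and 12.96 CPM in 6M_UT. Mmp9 had 4 to 27 counts in a library and a log2 fold change of 0.78 ± 0.66, and a difference of that size was not detectable at this depth. Timp1 had 0, 3 and 6 counts in 6M_PoW and 0 in each 6M_UT library, and no fold is given. It had 0, 7 and 7 counts in 6M_POW_LD, 1, 0 and 1 in 9M_PoW+DT and 7, 0 and 0 in 9M_UT, so 8 libraries had none, and it overlaps the synapsin gene Syn1 on the opposite strand, which had 0 to 6 counts. In all, 6 of the 9 tested members lay above 0 in trained over untrained muscle. The median over the 9 was 0.32 on the log2 scale, against 0.0013 over all genes tested. At an unadjusted p under 0.05, 3 members were higher and 0 lower, where 4.73% of all genes were higher. Groups did not overlap for 2 members that were higher and 1 that was lower, against 7.89% and 8.28% of all genes.

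**Figure D2:**
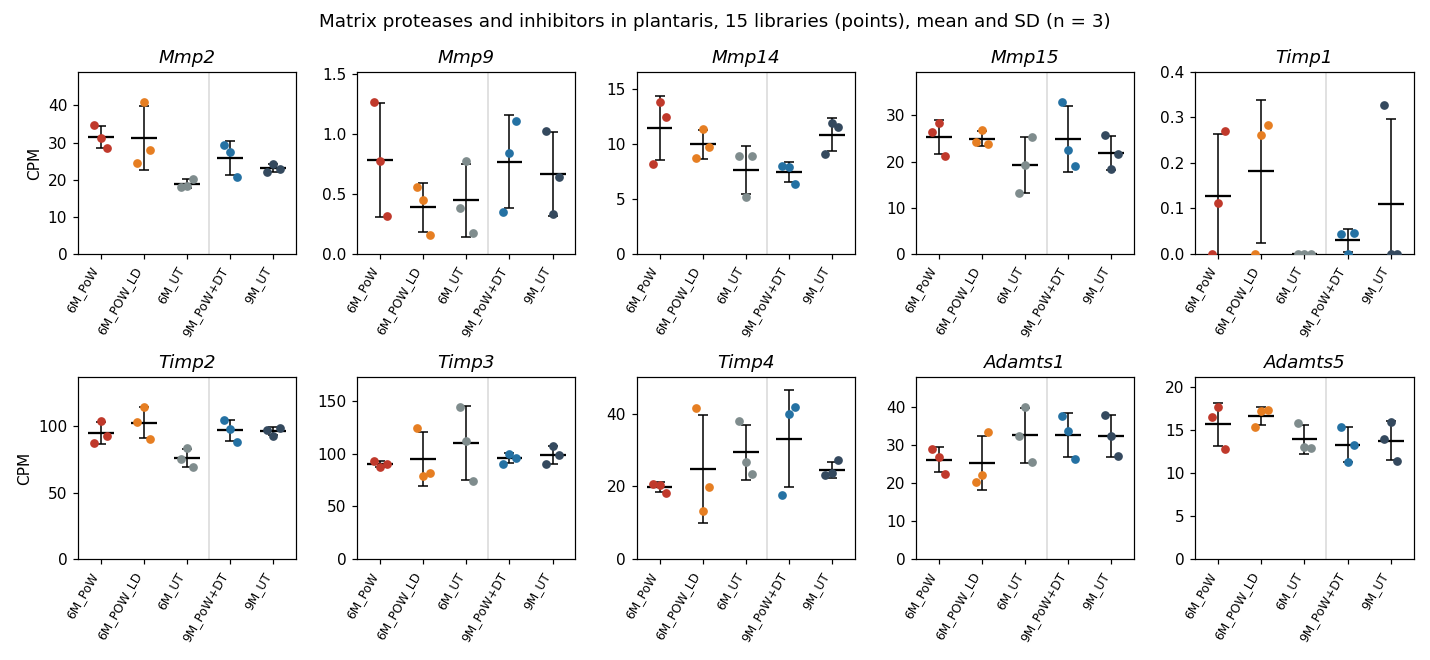
CPM of each gene in the 15 libraries (points) by group, with the mean and SD as bars (n = 3). Mmp2 lies at 28.6 to 34.7 CPM in 6M_PoW and 18.1 to 20.3 CPM in 6M_UT, and Timp1 is near 0 throughout.

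The LD libraries, titled as trained, were set against the same 6M_UT libraries, and Mmp2 and Timp2 passed the test. Here training by title and library series cannot be told apart. Mmp2 was at 24.6, 40.9 and 28.02 CPM in 6M_POW_LD, against the 18.1 to 20.3 CPM of 6M_UT. It rose by 0.73 ± 0.16 on the log2 scale, with an adjusted p of 0.0154 in edgeR. Timp2 was at 103, 114 and 90.7 CPM in 6M_POW_LD, against 69.5 to 83.3 CPM in 6M_UT, and rose by 0.43 ± 0.10 with an adjusted p of 0.0134. Both genes lay above 6M_UT in each of the 3 LD libraries. They were the 2 of 9 tested members called, both higher, where 4.99% of all 15181 genes were called in either direction and 2.15% higher, and 12.6% were higher without overlap. Both calls ended without 6M_POW_LD replicate 5, which had the highest Mmp2 and Timp2 of all libraries. Without it Mmp2 had a log2 fold change of 0.48 with an adjusted p of 0.0878, and Timp2 0.35 with 0.0924. Mmp2 missed the threshold without 6M_UT replicate 1, at an adjusted p of 0.0645, and Timp2 without 6M_UT replicate 3, at 0.0600.

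The other members did not pass against 6M_UT. Mmp14 was at 8.74, 11.4 and 9.76 CPM in 6M_POW_LD, with a log2 fold change of 0.39 ± 0.22, and overlapped 6M_UT. Timp4 was at 41.6, 13.2 and 19.7 CPM, so the LD libraries held both its lowest value of all and one close to its highest. Timp3 was also uneven, at 124, 78.5 and 82.0 CPM in 6M_POW_LD. The 2 libraries with the highest Timp3, 6M_UT replicate 1 and 6M_POW_LD replicate 4, also had the highest Timp4 of their groups. Directly compared, 6M_POW_LD and 6M_PoW differed in none of the 9 members at an adjusted p under 0.05 in edgeR, and 0 had an unadjusted p under 0.05 and 0 were called by DESeq2. Of all genes, edgeR called 2.40%, and 14.3% had an unadjusted p under 0.05. The log2 difference was -0.01 ± 0.16 for Mmp2 and 0.12 ± 0.10 for Timp2. With the LD libraries added to the trained group, 6 against 3, Mmp2 was called at a log2 fold change of 0.73 ± 0.14 and an adjusted p of 0.0418, where 0.191% of genes were called, and Timp2 had 0.38 ± 0.09 with 0.0692.

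**Figure D3:**
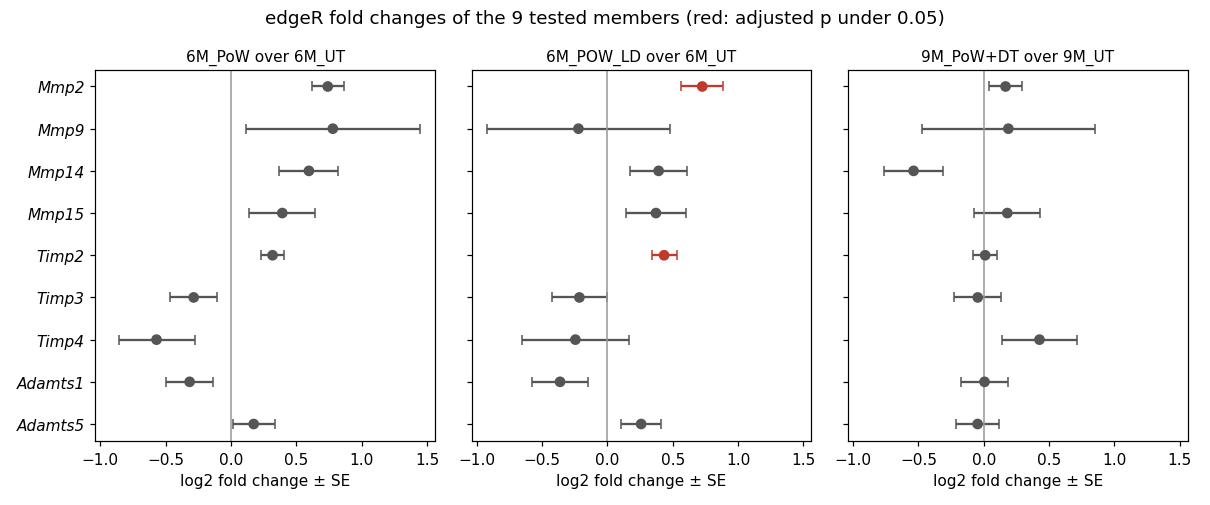
Log2 fold change with its standard error for the 9 tested genes after training, in the LD libraries and after detraining, with red for an adjusted p under 0.05 in edgeR. Mmp2 and Timp2 are red in 6M_POW_LD over 6M_UT, and Mmp14 lies at -0.54 in 9M_PoW+DT over 9M_UT.

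At 9 months, detrained muscle was set against untrained muscle to see how the members stood 12 weeks after the running. Mmp2 was at 29.4, 27.4 and 20.7 CPM in 9M_PoW+DT, against 22.1, 24.2 and 22.8 CPM in 9M_UT, and the groups overlapped, with a log2 fold change of 0.17 ± 0.12. Timp2 was at 105, 97.6 and 88.4 CPM in 9M_PoW+DT, against 96.9, 93.0 and 99.0 CPM in 9M_UT, with a log2 fold change of 0.01 ± 0.09. Mmp14 had 8.04, 7.93 and 6.38 CPM in 9M_PoW+DT, against 9.10, 11.9 and 11.5 CPM in 9M_UT. Every detrained library was below every untrained one, with a log2 fold change of -0.54 ± 0.23 and an unadjusted p of 0.0324, and an adjusted p of 0.735 in edgeR. Timp4 was at 17.7, 39.9 and 41.7 CPM in 9M_PoW+DT, against 23.1, 23.6 and 27.2 CPM in 9M_UT, and the detrained libraries fell on both sides of the untrained ones. Of the 9 tested members, 0 were called by edgeR, 1 (lower) had an unadjusted p under 0.05 and 0 were called by DESeq2. In this comparison 0.0201% of all genes were called, 3.29% were lower at an unadjusted p under 0.05 and 5.70% were lower without overlap. The median log2 fold change was 0.010 over the members and 0.0048 over all genes.

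The difference between the 2 effects, detraining minus training, was tested directly. It was -1.13 ± 0.32 on the log2 scale for Mmp14, with an unadjusted p of 0.00297 and an adjusted p of 0.270 in edgeR, from log2 fold changes of -0.54 after detraining and 0.60 after training. For Mmp2 it was -0.57 ± 0.18 with an adjusted p of 0.308, for Timp2 -0.31 ± 0.13 with 0.459 and for Timp4 0.997 ± 0.41 with 0.488. These 4 had an unadjusted p under 0.05, which 9.48% of all genes did, and 0 members were called by edgeR or DESeq2, where 0.0268% of genes were called by edgeR. If the treatment field were right for the 9-month libraries, the sign of the 9-month part would turn, and 0 members were called under that reading as well.

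The change over the 12 weeks and the difference with age share libraries with the comparisons above, so they are given as values. If the treatment field were right for the 9-month libraries, the first would set untrained muscle of 9 months against trained muscle of 6 months, and the second detrained against untrained muscle. Mmp14 was lower in every 9M_PoW+DT library than in any 6M_PoW library, with a log2 fold change of -0.62 ± 0.23 and an adjusted p of 0.261 in edgeR. The margin was narrow, with 9M_PoW+DT replicate 1 at 8.04 CPM (185 counts) and 6M_PoW replicate 1 at 8.15 CPM (174 counts). Timp4 had a log2 fold change of 0.74 ± 0.29 with an adjusted p of 0.331, and without 9M_PoW+DT replicate 1 it was called, at 1.04 with an adjusted p of 0.0235. Mmp2 had a log2 fold change of -0.29 ± 0.12 with an adjusted p of 0.351. In this comparison 0 of 9 members were called by edgeR, 3 had an unadjusted p under 0.05 and 0 were called by DESeq2, where 0.295% of all genes were called by edgeR, 12.7% had an unadjusted p under 0.05 and 9.67% were lower without overlap. In 9M_UT, Timp2, Mmp14 and Mmp2 lay above every 6M_UT library, with log2 fold changes of 0.34 ± 0.09, 0.51 ± 0.23 and 0.29 ± 0.13. Their adjusted p in edgeR was 0.364 for Timp2 and 0.724 for the other two. DESeq2 and edgeR called 0 members, and these 3 had an unadjusted p under 0.05. Of all genes, edgeR called 0.0134%, 3.21% were higher at an unadjusted p under 0.05 and 5.34% were higher without overlap.

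For Mmp2 and Timp2 the 3 6M_UT libraries were the lowest of all 15. The highest 6M_UT value of Mmp2, 20.3 CPM, was below the lowest of the other 12 libraries, 20.7 CPM, and that of Timp2, 83.3 CPM, was below 87.7 CPM. Of the 15181 tested genes, 43 (0.283%) had this pattern, which was noticed after the values were seen. The training, LD and age differences of both genes all rest on the same 3 untrained libraries.

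Markers of other cells in the muscle are given beside these values, and their part in the member differences was not tested. In bulk muscle, fewer cells of a type and less RNA per cell cannot be told apart. Fibro-adipogenic progenitors are connective tissue cells known as a source of Mmp2, Mmp14 and Timp2. Their 8 markers summed to 965 to 1125 CPM in 6M_PoW and 1003 to 1134 CPM in 6M_POW_LD, against 823 to 976 CPM in 6M_UT. At 9 months they summed to 905 to 1024 CPM in 9M_PoW+DT, against 971 to 1116 CPM in 9M_UT. Over the 15 libraries Gsn was at 496 to 730 CPM and Dcn at 199 to 316 CPM, so these 2 markers made up most of the sum. All 8 were above 0 after training, 0 of them called. In 6M_POW_LD over 6M_UT all 8 were above 0 and 4 were called, among them Pdgfra at 0.67 ± 0.12. Pdgfra was the one of the 4 that was called with any 1 library left out. The 6 macrophage markers summed to 53.6 to 71.2 CPM in 6M_PoW and 56.8 to 69.3 CPM in 6M_POW_LD, against 38.3 to 43.5 CPM in 6M_UT. The 6 endothelial markers summed to 293 to 328 CPM in 6M_PoW and 274 to 320 CPM in 6M_POW_LD, against 230 to 272 CPM in 6M_UT. At 9 months they summed to 209 to 261 CPM in 9M_PoW+DT, against 261 to 283 CPM in 9M_UT. All 6 had log2 fold changes below 0 in detraining, in the difference and in 9M_PoW+DT over 6M_PoW, as did Mmp14. Of the 6, 0 were called by edgeR in these, and 2, 4 and 3 had an unadjusted p under 0.05. In the same comparisons 6, 8 and 6 of the 8 progenitor markers were below 0, and 2, 6 and 3 of the 6 macrophage markers. Mmp14 was also below 0 in 6M_POW_LD over 6M_PoW, at -0.20, where 4 of the 6 endothelial markers were below 0 and 2 above. The 4 mural cell markers summed to 366 to 403 CPM in 6M_PoW and 367 to 381 CPM in 6M_POW_LD, against 304 to 317 CPM in 6M_UT. Most of that sum was Rgs5, at 225 to 346 CPM over the 15 libraries. The neutrophil markers, whose cells store Mmp9, summed to at most 1.09 CPM, and Retnlg was at 0 in 10 libraries. The 4 adipocyte markers, given here beside Timp4, summed to 5.49 to 9.09 CPM in 6M_PoW, against 9.25 to 11.2 CPM in 6M_UT. At 9 months they summed to 15.4 to 61.6 CPM in 9M_PoW+DT, against 7.43 to 14.0 CPM in 9M_UT. The highest sum of 61.6 CPM and the lowest of 1.84 CPM were in 9M_PoW+DT replicate 3 and 6M_POW_LD replicate 4, and Timp4 was at 41.7 and 41.6 CPM in those 2 libraries.

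Other genes of matrix turnover were followed by list. Substrates of these proteases, the collagens, laminins, fibronectin and proteoglycans, lay above 0 in 6M_PoW over 6M_UT in 26 of 27 tested genes. Their median log2 fold change was 0.53, against 0.0013 over all genes. None of the 27 was called by edgeR, and 18 were higher at an unadjusted p under 0.05. The collagen gene Col5a2 was at 14.96 ± 2.1 CPM in 6M_PoW and 7.49 ± 1.1 CPM in 6M_UT, a log2 fold change of 1.001 ± 0.16 with the same adjusted p as Mmp2. In 6M_POW_LD over 6M_UT the median was 0.52, and 10 of 27 were called, all higher, among them the basement membrane collagen Col4a1 (0.52 ± 0.09) and fibronectin, Fn1 (0.96 ± 0.23). The count of 10 was 17 with DESeq2 and 3 without 6M_POW_LD replicate 5, and 5 or 6 without 6M_UT replicate 1 or 3, 6M_POW_LD replicate 6, 9M_UT replicate 3 or 9M_PoW+DT replicate 2. Col4a1, Col4a2 and Col5a2 were called with any 1 of the 15 libraries left out. After detraining 19 of 27 lay above 0 with a median of 0.17, and 0 were called. Dcn and Lum are in this list and among the progenitor markers, so the 2 lists are not separate.

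Of 16 other MMP genes, 11 were in the table, and the 4 tested in the training comparison included 3 above 0 and 0 called. Of 11 other tested ADAMTS genes, 9 lay above 0 in 6M_PoW over 6M_UT with a median of 0.19, and 0 were called in any comparison. Bmp1, which matures procollagen, was at 19.8 ± 0.64 CPM in 6M_PoW, 18.5 ± 0.31 CPM in 6M_POW_LD and 14.0 ± 2.7 CPM in 6M_UT, and was not called. Lrp1, an endocytic receptor that clears MMPs and TIMPs, was at 69.9 ± 5.8 CPM in 6M_PoW, 77.3 ± 7.7 CPM in 6M_POW_LD and 53.2 ± 2.8 CPM in 6M_UT. It rose in 6M_POW_LD over 6M_UT by 0.54 ± 0.09 with an adjusted p of 0.00168 in edgeR, also with any 1 library left out. Of the 12 receptors and inducers, 9 lay above 0 in 6M_POW_LD over 6M_UT, and Cav1 and Itgb3 were called higher too. Their calls ended in 4 and 7 of the 15 fits with 1 library left out. Among these were the fits without 6M_UT replicate 1 and without each LD library. Bsg, of the same list, was lower in every 6M_PoW and 6M_POW_LD library than in any 6M_UT library. Its log2 fold changes were -0.26 ± 0.08 and -0.20 ± 0.08, with an adjusted p of 0.300 and 0.173 in edgeR. The crosslinking enzyme Loxl2 rose in 6M_POW_LD over 6M_UT by 0.55 ± 0.15 with an adjusted p of 0.0447. That call ended in 13 of the 15 fits with 1 library left out. The cathepsins were mixed. Of 11, 7 lay above 0 in 6M_POW_LD over 6M_UT, 0 of them called, and 4 below. The lysosomal proteases Ctsd (-0.31 ± 0.06) and Ctsz (-0.45 ± 0.13) were called lower there, and both lay below 0 in all 15 fits with 1 library left out. The call held in all 15 for Ctsd and in 3 for Ctsz, whose log2 fold change was -0.55 to -0.32 over them. In 6M_PoW over 6M_UT Ctsd was at -0.0072 ± 0.066 and Ctsz at -0.20 ± 0.13. Between the sets titled as trained, 6M_POW_LD over 6M_PoW, Ctsd was called lower. Its log2 fold change there was -0.30 ± 0.06 with an adjusted p of 0.0145 in edgeR. Ctsz was not called there, at -0.25 ± 0.13.

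Among other inhibitors, cystatin C, Cst3, which inhibits cysteine cathepsins and not metalloproteinases, was at 588 ± 65 CPM in 6M_POW_LD, 379 ± 28 CPM in 6M_PoW and 335 ± 13 CPM in 6M_UT. It rose in 6M_POW_LD by 0.81 ± 0.08 over 6M_UT and by 0.63 ± 0.08 over 6M_PoW. Of 10 tested inhibitors in that list, 7 lay above 0 and 3 below in 6M_POW_LD over 6M_UT. Of these 2 were called higher and 1 lower. Those called higher were Cst3 and Serping1, the C1 inhibitor. Wfikkn2, which binds myostatin, was called lower, with a log2 fold change of -0.86. In 6M_PoW over 6M_UT it was at -0.0042 ± 0.16. It was also called lower in 6M_POW_LD over 6M_PoW, at -0.86 ± 0.19 with an adjusted p of 0.0220 in edgeR. Over 6M_UT, the Cst3 call held with any 1 library left out. Those of Serping1 and Wfikkn2 over 6M_UT each ended in 3 of 15 such fits, the one without 6M_POW_LD replicate 5 among them.

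**Figure D4:**
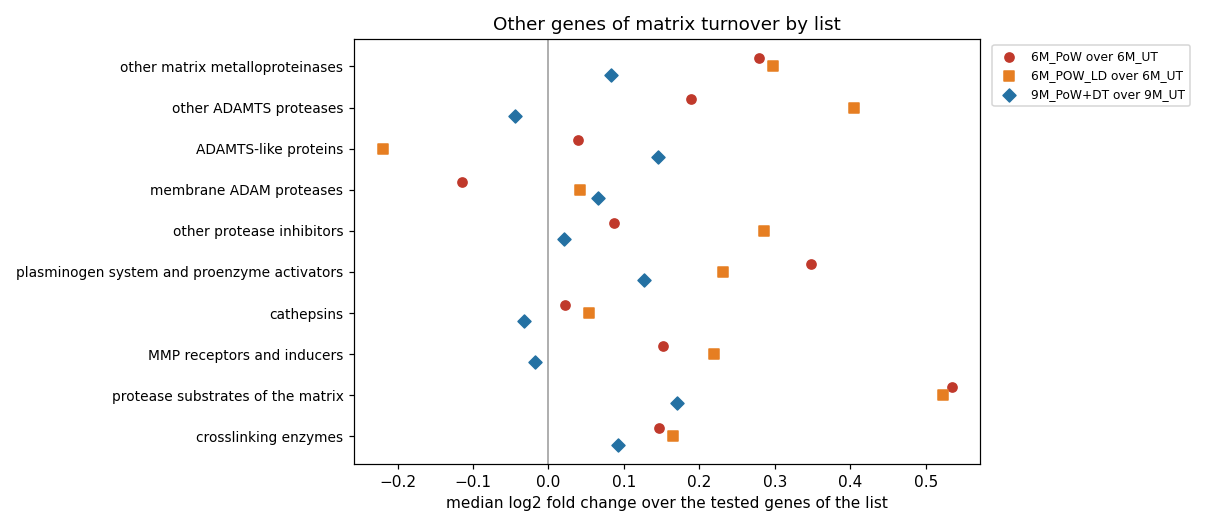
Median log2 fold change over the tested genes of each list of matrix turnover genes, after training (circles), in the LD libraries (squares) and after detraining (diamonds). The protease substrates stand furthest to the right, at 0.53 after training and 0.52 in the LD libraries, against 0.17 after detraining.

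Genes whose levels followed the members most closely over the 15 libraries were found by the root mean square difference of centred log2 CPM, among 9933 genes. For Mmp2 these were Cd34, a surface marker of progenitor and vessel cells (0.161), Peak1 (0.167) and Pam, a peptide-amidating enzyme (0.173), where the SD of Mmp2 itself was 0.332. For Timp2 they were Serping1 (0.0850), Erp44 (0.104) and Reep3 (0.107), where its SD was 0.186. For Mmp14 they were Tram2, which serves collagen synthesis, Adgrl4 and the proteoglycan gene Dcn, at 0.179 to 0.204 against an SD of 0.355. For Timp4 the nearest was Jade2 at 0.216, against an SD of 0.492. These are descriptions over 15 libraries that share groups and library series.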

How the data were processed

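RNA was measured in 15 plantaris libraries, 3 in each of 5 groups set by title. Expected counts for 20406 genes were deposited as 1 table, with 26.9% to 31.9% of values per library not whole. STAR 2.7.3a, DESeq2, Partek and mm10 are named per the submitters' processing notes, without roles. How reads were counted, with which annotation and strand setting, is not given there.

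Counts were rounded, filtered with filterByExpr and TMM-scaled, and a robust quasi-likelihood model with 1 mean per group was fitted (edgeR 4.0.16, limma 3.58.1, R 4.3.3). Fits of 12 libraries (14919 genes) served the training, detraining, difference, rest and age comparisons, and fits of 15 (15181 genes) those with LD libraries. P-values were adjusted by Benjamini-Hochberg over all genes tested, at 0.05. DESeq2 1.42.0, other scalings, no filter, a replicate block and leaving out each library were alternatives. CPM used the scaled totals, and CPM per kb the union of exons in GENCODE vM21. The edgeR step was tested on simulated data. No 2 libraries were alike (highest correlation 0.988).

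The members, gene lists and cell type markers were chosen with earlier results of these data known. Named genes were the 10 members, from each list up to 3 genes with the smallest training p plus called genes, and the 3 genes most like a member that differed between groups.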

Additional observations from a re-analysis of the deposited data

How the results depend on the processing

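Of the member fold changes, 762 kept direction and side of the threshold when 1 library was left out and 229 in the other settings. No member was called in training, and 1 (Mmp2) was with no filter on low counts, with DESeq2's Wald test and with the LD libraries added to the trained group, the cause of which was not tested. Leaving out 1 library gave 0 to 1 members called in training and in 9M_PoW+DT over 6M_PoW, and 0 to 2 in 6M_POW_LD over 6M_UT. Genes called in training were 0, and 8 with no filter, 112 with DESeq2, 1 with the replicate block and 0 to 10 with 1 library left out. The counts with DESeq2 against edgeR were 30 and 3 in detraining, 111 and 4 in the difference, 348 and 44 in 9M_PoW+DT over 6M_PoW, 58 and 2 with age, 1190 and 757 in 6M_POW_LD over 6M_UT and 675 and 365 in 6M_POW_LD over 6M_PoW. With no filter they were 10 in the difference, 81 in 9M_PoW+DT over 6M_PoW and 10 with age. Leaving out 1 library gave 1 to 6, 0 to 26, 0 to 109, 1 to 15, 288 to 827 and 157 to 428 for these 6 comparisons in the same order. The correlations of same-numbered libraries ran from -0.29 to 0.22, and at most 4 of 6 libraries of a comparison correlated best with their own number. With so few libraries in a group, these values cannot settle whether replicate numbers pair the samples. With the replicate number as a block Mmp2 in training was 0.73 with an adjusted p of 0.0978, no member call changed, and 19 genes were called in 9M_PoW+DT over 6M_PoW, 5 with age, 2 in detraining and 4 in the difference.

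The number of matrix substrates called in 6M_POW_LD over 6M_UT, added as an alternative after seeing the data, was 10, and 7 with no filter, 17 with DESeq2 and 3 to 10 with 1 library left out. The sign of a member's fold change turned in 42 of the fits with 1 library left out and in 3 of the other settings. Adamts1 with age was 0.0011 with DESeq2's size factors and 0.0014 with its Wald test, and Mmp9 in 9M_PoW+DT over 6M_PoW was 0.097 with the replicate block. With 1 library left out, log2 fold changes in detraining ranged from -0.18 to 0.64 for Mmp9, -0.077 to 0.34 for Mmp15, -0.050 to 0.071 for Timp2, -0.11 to 0.014 for Timp3, -0.11 to 0.14 for Adamts1 and -0.17 to 0.069 for Adamts5. With age they ranged from -0.024 to 0.43 for Mmp15, -0.38 to 0.082 for Timp3, -0.15 to 0.17 for Adamts1 and -0.13 to 0.10 for Adamts5. In 9M_PoW+DT over 6M_PoW they ranged from -0.41 to 0.47 for Mmp9, -0.28 to 0.13 for Mmp15 and -0.027 to 0.10 for Timp2. In the difference Timp3 ranged from -5.248e-07 to 0.46. In 6M_POW_LD over 6M_UT they ranged from -0.59 to 0.46 for Mmp9, -0.46 to 0.024 for Timp3 and -0.84 to 0.060 for Timp4. In 6M_POW_LD over 6M_PoW they ranged from -0.26 to 0.13 for Mmp2, -0.13 to 0.069 for Mmp15, -0.17 to 0.19 for Timp3, -0.27 to 0.63 for Timp4, -0.30 to 0.087 for Adamts1 and -0.035 to 0.18 for Adamts5. Depth limits Mmp9 and Timp1.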
